A study of Mus musculus with 16 samples.

Results

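Etl4 and Myo16 are a pair of long mouse genes that were selected, out of 21938 annotated protein-coding genes, for low CpG methylation in oocytes grown in follicle culture. Their members were the 10-kb bins over the GENCODE gene bodies and over 100 kb on either side: 112 bins for Etl4 (92 on the body) and 69 bins for Myo16 (49 on the body), 181 of 272564 bins in the genome. On the GRCm38 build, Etl4 lies at chr2:19909780-20810713 and Myo16 at chr8:10153911-10634742, both on the forward strand. Of the 181 bins, 164 held at least 5 covered positions in every library of both prepubertal groups and could be compared between them (97 for Etl4 and 67 for Myo16). Because low values after culture chose both genes, every contrast of these 2 genes with the cultured oocytes is given as a description without a test.

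All 16 libraries came from pools of metaphase II oocytes of C57BL/6J X CBA/Ca F1 females and were made by post-bisulphite adapter tagging, which reads methylation after bisulphite has converted unmethylated cytosines. The IFC group (in vitro follicle culture, 4 pools) held oocytes from preantral follicles of 13-day-old females cultured for 10 days with recombinant follicle-stimulating hormone and then given recombinant chorionic gonadotropin and epidermal growth factor, labelled as 23 days old. The SO group (5 pools) came from prepubertal females superovulated with equine and then human chorionic gonadotropin at 23 days, the SOA group (4 pools) from adults superovulated in the same way at 10 weeks, and the IV group (3 pools) from natural ovulation of adults at 10 weeks. IFC and SO therefore share an age label and differ in the place of growth and in the ovulatory stimulus, and SO and SOA share the hormones, the prepubertal dose being lower. Each pool mixes many oocytes of several females, so methylation in part of the oocytes and partial methylation in all of them cannot be told apart.

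Oocyte methylation is laid down while the oocyte grows, mainly over transcribed gene bodies, and leaves long unmethylated stretches between methylated domains. Etl4, also called Skt or sickle tail, encodes a coiled-coil protein known from the notochord and the intervertebral discs. Myo16 encodes an unconventional myosin of neurons with ankyrin repeats that bind a protein phosphatase. Myosins are motor proteins that move along actin filaments.

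Depth limited single sites. A library held from 5218053 to 23065411 calls, and single-read positions made up 65.5% to 91.5% of those covered. IFC libraries had 5311009 to 8231898 calls and IV libraries 15644144 to 17275310, while SO and SOA spanned both ranges. Promoter windows of 8 maternally imprinted genes were taken as regions that oocytes methylate and somatic cells hold near the middle. They were methylated in 88.2% of pooled IFC calls and 84.4% of SO calls, and in 83.5% and 78.9% of those of SOA and IV. The region upstream of H19, which oocytes leave unmethylated, stood at 1.23% to 2.99%. Of these promoters 6 stood at 89.8% to 100% in each group, whereas Mest was at 20% to 50% and Plagl1 at 0% to 2.99%. The Mest and Plagl1 windows were thus not methylated as assumed. They gave 8 and 30 of the 425 pooled IFC calls, and 29 and 93 of the 790 IV calls. Since their share of the calls differs between groups, the pooled values do not rank the groups. By library, the pooled share over the 8 promoters was lowest in IV1, at 71.3%, with 78.5% in IV2 and 86.6% in IV3. The paper suspected a little somatic DNA in IV1 and kept it, and every IV mean here includes it. The part of depth or of other cells in the results below was not tested, except where values within libraries of similar depth are given.

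The sequences shown first stand for transcription starts, hypomethylated bins and methylated bins of both genes, read from the reference (RefSeq's GRCm38.p6) on the forward strand, 5′ to 3′, with every CpG in capitals. They are the 250 bases before a RefSeq transcription start, and the 300-base windows with the most CpGs that hold no exon and no masked repeat, 1 within the hypomethylated bins and 1 within the methylated bins near the 3′ end of each body.

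Etl4, before the start at 600 kb, chr2:20509797-20510046: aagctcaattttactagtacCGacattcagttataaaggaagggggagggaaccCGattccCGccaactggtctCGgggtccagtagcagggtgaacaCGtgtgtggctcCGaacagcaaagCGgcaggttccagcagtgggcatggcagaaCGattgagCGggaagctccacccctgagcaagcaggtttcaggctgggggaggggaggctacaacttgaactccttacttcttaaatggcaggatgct
Etl4, intron at 610 kb, chr2:20520182-20520481: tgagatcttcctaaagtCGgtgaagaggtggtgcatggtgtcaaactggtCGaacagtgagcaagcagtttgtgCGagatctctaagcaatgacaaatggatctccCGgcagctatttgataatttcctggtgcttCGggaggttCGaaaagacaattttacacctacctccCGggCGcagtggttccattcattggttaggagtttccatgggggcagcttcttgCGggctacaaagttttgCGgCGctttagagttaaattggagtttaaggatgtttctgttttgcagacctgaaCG
Etl4, near the 3′ end of the body, chr2:20803685-20803984: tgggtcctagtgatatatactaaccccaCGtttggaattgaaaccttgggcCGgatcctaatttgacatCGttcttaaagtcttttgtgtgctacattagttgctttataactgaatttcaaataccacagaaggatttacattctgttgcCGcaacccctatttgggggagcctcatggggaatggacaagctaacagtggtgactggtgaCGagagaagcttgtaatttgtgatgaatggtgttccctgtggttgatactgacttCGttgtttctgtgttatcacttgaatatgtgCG
Myo16, before the gene start, chr8:10153661-10153910: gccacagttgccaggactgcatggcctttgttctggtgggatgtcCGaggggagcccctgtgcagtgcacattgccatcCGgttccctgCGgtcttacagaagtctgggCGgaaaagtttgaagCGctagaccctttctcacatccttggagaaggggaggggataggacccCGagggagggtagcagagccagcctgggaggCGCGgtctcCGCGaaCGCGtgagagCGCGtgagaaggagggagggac
Myo16, intron at 295 kb, chr8:10448556-10448855: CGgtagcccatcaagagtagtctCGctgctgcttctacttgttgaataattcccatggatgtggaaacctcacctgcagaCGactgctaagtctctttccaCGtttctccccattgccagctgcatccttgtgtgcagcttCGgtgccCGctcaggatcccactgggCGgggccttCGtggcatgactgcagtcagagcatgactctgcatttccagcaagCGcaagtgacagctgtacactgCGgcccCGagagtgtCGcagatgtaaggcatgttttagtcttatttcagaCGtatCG
Myo16, near the 3′ end of the body, chr8:10562924-10563223: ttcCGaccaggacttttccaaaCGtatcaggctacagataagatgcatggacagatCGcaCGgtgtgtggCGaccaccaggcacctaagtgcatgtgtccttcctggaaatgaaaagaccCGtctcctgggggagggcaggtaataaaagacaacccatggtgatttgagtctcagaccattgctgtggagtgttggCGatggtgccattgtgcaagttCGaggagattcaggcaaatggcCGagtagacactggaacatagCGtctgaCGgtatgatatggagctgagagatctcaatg

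The 9 CpGs before the Etl4 start at 600 kb gave 0 of 7 methylated calls in IFC and 0 of 7 in SOA, each from 1 library, with 6 of 21 in SO and 1 of 27 in IV. Intronic sequence 10 kb further in, with 12 CpGs, was methylated in 3 of 46 IFC calls (6.52%, 95% Wilson interval 2.24% to 17.5%), against 30 of 43 in SO (69.8%, 54.9% to 81.4%), 16 of 17 in SOA and 17 of 22 in IV. Near the 3′ end of Etl4 all 9 IFC calls of the 7-CpG window were methylated, with 14 of 15 in SO, 13 of 13 in SOA and 9 of 10 in IV. Upstream of Myo16, 14 CpGs were methylated in 2 of 27 IFC calls (7.41%, 2.06% to 23.4%), 11 of 26 in SO (42.3%, 25.5% to 61.1%), 12 of 20 in SOA and 22 of 39 in IV. By library, this was 11.1% of 9 calls in IFC1, 100% of 1 in IFC2 and 0% of 17 in IFC3. SO1 stood at 0% of 5 calls, SO2 at 22.2% of 9, SO3 at 100% of 3 and SO4 at 66.7% of 9. IFC4 and SO5 had no calls, and the IFC and SO libraries overlapped in this window. The intronic Myo16 window, although inside a hypomethylated bin, did not show the difference, with 6 of 9 calls methylated in IFC (66.7%, 35.4% to 87.9%, from 2 of the libraries), 41 of 59 in SO (69.5%, 56.9% to 79.7%), 18 of 26 in SOA (69.2%, 50.0% to 83.5%) and 19 of 40 in IV (47.5%, 32.9% to 62.5%). Near the 3′ end of Myo16, 11 of 11 IFC calls and 17 of 20 SO calls were methylated. Calls of a window come from a few reads, so these intervals cover counting error only.

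Over the whole Etl4 body, the mean of the percentages of all covered positions was lowest in IFC. The 4 IFC libraries gave 33.1%, 29.4%, 31.5% and 29.1% (30.8% ± 1.89, SD, n = 4). SO gave 42.6%, 40.2%, 43.7%, 40.1% and 40.5% (41.4% ± 1.67, SD, n = 5). SOA gave 50.1%, 49.2%, 42.2% and 47.4% (47.2% ± 3.52, SD, n = 4), and IV gave 50.1%, 47.6% and 45.7% (47.8% ± 2.24, SD, n = 3). No IFC library reached any library of another group, and the SO range overlapped only SOA3. The mean IFC level was 10.6 points below SO, 16.4 below SOA and 17.0 below IV. Restricted to the shallow libraries (all 4 of IFC, SO1, SO2, SOA1, SOA2 and SOA3, none with more calls than the deepest IFC library), IFC was 10.6 points below SO and 16.4 below SOA.

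Myo16 was more methylated than Etl4 in every library and showed the same order of the prepubertal groups below the adults. IFC libraries gave 53.1%, 57.4%, 52.9% and 46.4% (52.5% ± 4.56, SD, n = 4). SO gave 67.8%, 67.4%, 68.8%, 66.3% and 65.9% (67.2% ± 1.19, SD, n = 5). SOA gave 76.9%, 73.4%, 74.4% and 68.6% (73.3% ± 3.45, SD, n = 4), and IV gave 72.3%, 71.4% and 72.8% (72.2% ± 0.677, SD, n = 3). Here too IFC lay below all other libraries, and only SOA4, the lowest adult library, fell within the SO range. The mean IFC level was 14.8 points below SO, 20.9 below SOA and 19.7 below IV, and in the shallow libraries it was 15.2 points below SO and 22.4 below SOA.

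The comparison of SO with SOA, and of both with IV, addressed whether age and superovulation went with a difference in the absence of culture. SO minus SOA was -5.80 points in Etl4 (standard error 1.91) and -6.10 in Myo16 (standard error 2.18), differences that did not pass limma's test after Benjamini-Hochberg adjustment over 14356 gene bodies (adjusted p = 0.208 and 0.269). An exact two-sided permutation test of these samples alone gave p = 0.0317 for Etl4 and 0.0159 for Myo16, where 5 against 4 libraries cannot go below 0.00794. In this contrast limma called 0.557% of all gene bodies lower and 1.00% higher in SO. An unadjusted limma p under 0.05 was common, with 1492 of the 14356 bodies, 772 of them lower in SO. SO minus IV was -6.39 points in Etl4 (limma adjusted p = 0.255) and -4.95 in Myo16 (adjusted p = 0.592), with 0.244% of gene bodies called lower and 0.578% higher in SO. Every SO library was below every IV library in both genes, with the smallest exact permutation p of that design, 0.0179. Between SO and IV, 1233 of all gene bodies had an unadjusted limma p under 0.05, 449 of them lower in SO. SOA and IV differed by 0.595 points in Etl4 and 1.15 in Myo16 (limma adjusted p = 0.957 and 0.916, exact permutation p = 0.771 and 0.629). The share of gene bodies called in that contrast was 0% in either direction, while 840 had an unadjusted p under 0.05.

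**Figure D1:**
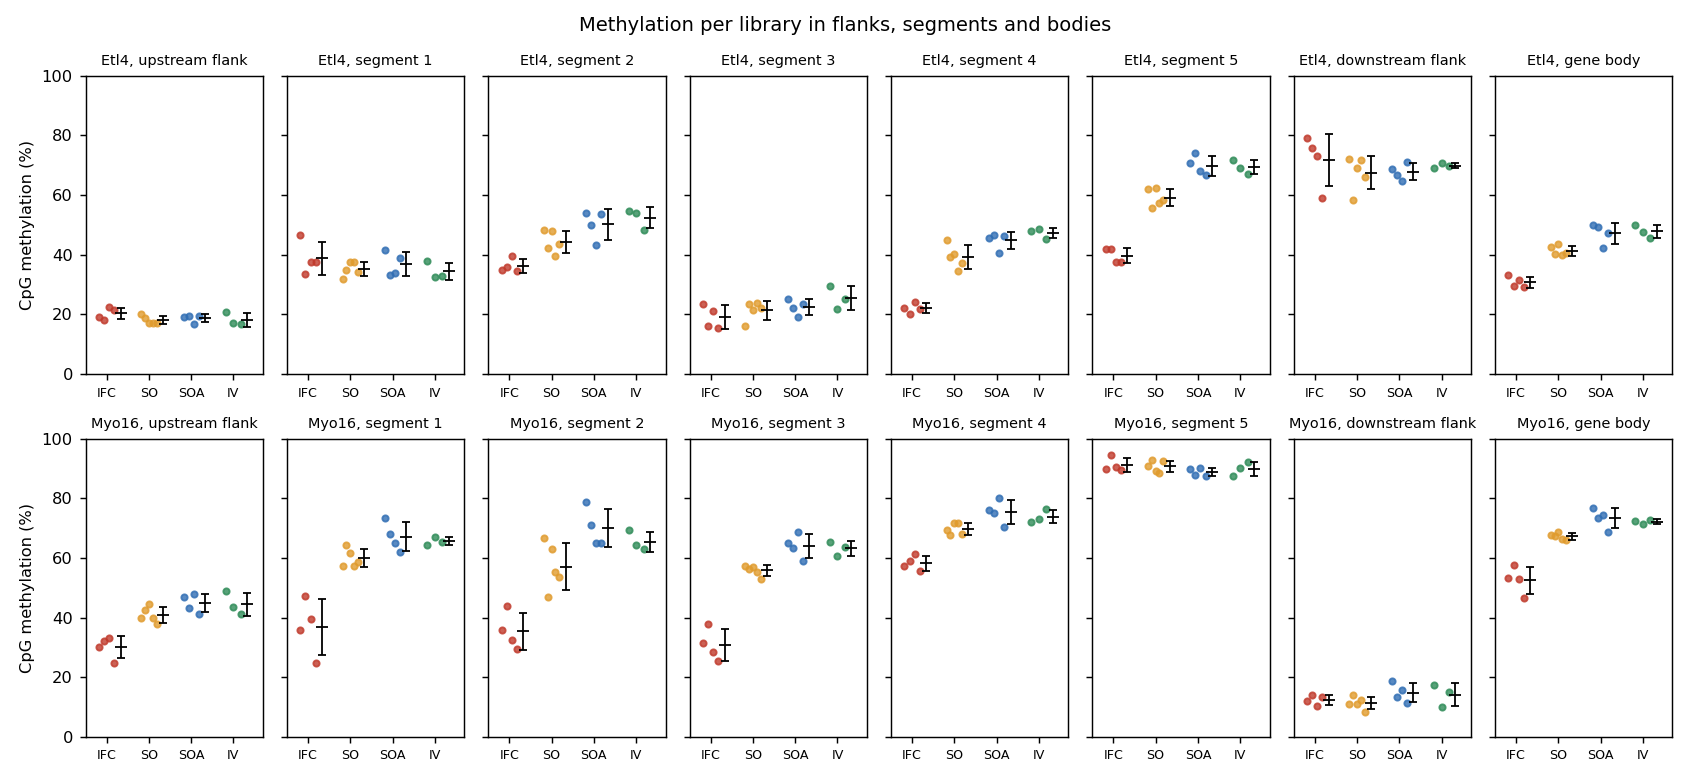
CpG methylation (%) of each library in both 100-kb flanks, the 5 equal segments of the body in transcription order, and the whole body, for Etl4 (top) and Myo16 (bottom), with 1 point per library and the mean ± SD as a black bar beside each group. IFC lies apart in segments 4 and 5 of Etl4 and in the upstream flank and segments 1 to 4 of Myo16, and overlaps the other groups in segment 5 of Myo16 and in the downstream flanks.

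When each body was cut into 5 equal segments, the difference between IFC and SO was found to vary along the gene. In Etl4 the IFC mean was 17.2 points below SO in segment 4 (22.1% ± 1.63 against 39.3% ± 3.87) and 19.5 below in segment 5 (39.7% ± 2.55 against 59.2% ± 2.97), and all IFC libraries lay below all SO libraries in both. Segment 2 was 7.98 points lower in IFC (36.3% ± 2.38 against 44.3% ± 3.69), where IFC3 and SO4 overlapped and all IFC libraries lay below all SOA and IV libraries. In segment 1 the IFC mean was higher, 38.8% ± 5.53 against 35.3% ± 2.41 in SO, and the libraries overlapped. Segment 3 was low in every group (19% to 25.5%). In Myo16 the IFC mean was 23.1 points below SO in segment 1, 21.6 in segment 2, 25 in segment 3 and 11.4 in segment 4. Segment 5 of Myo16 stood at 91.0% ± 2.31 in IFC and 90.7% ± 1.86 in SO, and 88.7% ± 1.27 and 89.9% ± 2.38 in the SOA and IV groups, and its IFC and SO libraries overlapped. In the flanks of Etl4 the libraries of IFC and SO overlapped (20.3% ± 1.95 against 18.1% ± 1.29 upstream, 71.8% ± 8.83 against 67.5% ± 5.59 downstream). The upstream flank of Myo16 was lower in IFC (30.1% ± 3.76 against 40.9% ± 2.66 in SO), with no overlap, and the downstream flank was low in both (12.4% and 11.3%).

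Between SO and SOA, 2 segments separated fully. In segment 5 of Etl4, SO (62.0%, 55.8%, 62.6%, 57.3% and 58.2%) lay wholly below SOA (70.7%, 74.2%, 68.1% and 66.6%), a difference of 10.7 points with the smallest exact permutation p of the design, 0.00794. In segment 3 of Myo16, SO (57.4%, 56.1%, 57.1%, 55.2% and 53.1%) lay wholly below SOA (65.0%, 63.3%, 68.8% and 58.8%), a difference of 8.20 points with the same exact permutation p of 0.00794. Neither segment differed between SOA and IV beyond the spread of the libraries, with differences of 0.519 and 0.83 points (exact permutation p = 0.857 for both). With overlap, SO was also lower than SOA in segment 4 of Etl4 (exact permutation p = 0.0397) and segments 1 and 4 of Myo16 (exact permutation p = 0.0317 for both). SO lay wholly below IV in segments 2, 4 and 5 of Etl4 and 1, 3 and 4 of Myo16 (exact permutation p = 0.0179 to 0.0357). In the other segments SO and IV overlapped. In segment 5 of Myo16, SO was 1.95 points above SOA (exact permutation p = 0.127), and in the downstream flank of Etl4 SO minus SOA was -0.293 points (exact permutation p = 0.937). In all, 48 such exact tests were run over bodies, segments and flanks, and these p-values are not adjusted for their number.

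**Figure D2:**
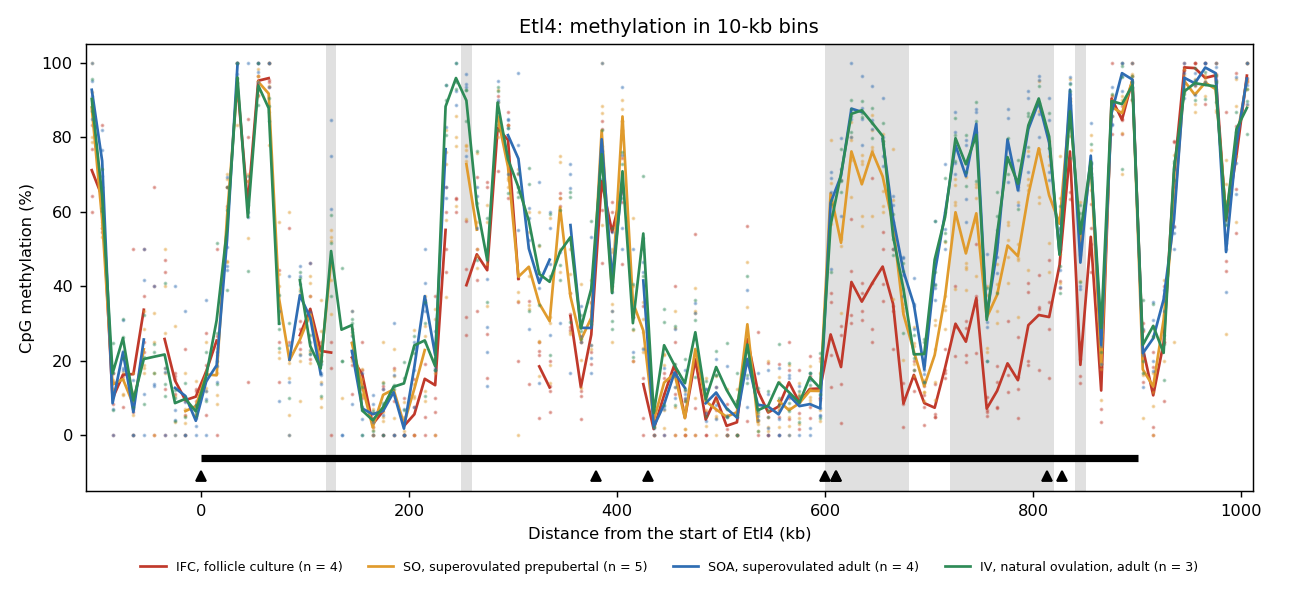
CpG methylation (%) in 10-kb bins along Etl4 and 100 kb of either flank against the distance from the gene start (kb), with lines for group means, points for single libraries, a black bar for the body, triangles for annotated starts of protein-coding transcripts, and grey bands for bins at least 20 points lower in IFC than in SO. Grey bands stand alone at 120 and 250 kb, crowd between 600 and 850 kb, and are absent from the 3 bins from 870 kb, where all group means lie above 84%, and from the low last bin of the body.

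Bins placed these differences more closely. A bin was called hypomethylated where the IFC mean was at least 20 points below the SO mean, which 1.13% of 206062 bins in the genome fulfilled. Of the 97 Etl4 bins that could be compared, 21 were hypomethylated, all of them on the body, and of the 67 Myo16 bins, 23 were, 22 on the body and 1 immediately upstream. No bin of either gene was 20 points higher in IFC, as 0.794% of all bins were. The median difference between IFC and SO was -3.83 points over the Etl4 bins and -10.2 over the Myo16 bins, against 0.337 over all bins of the genome. In 17 of 90 Etl4 bins and 21 of 67 Myo16 bins every IFC library was below every other library, compared with 0.600% of 192277 bins in the genome. Since the genes were selected on this contrast, these shares describe the selection. Just inside the limit were Etl4 bins with differences of -21.3 and -22.8 points and Myo16 bins with -20.5 and -21.2. Just outside were Etl4 bins with -19.8 and -19.4 and Myo16 bins with -19.3 and -18.6.

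In Etl4, the hypomethylated bins formed 2 main stretches, 80 kb from 600 kb after the gene start with 8 of 8 bins, and 100 kb from 720 kb with 10 of 10 bins. Over the first stretch IFC was methylated to 32.1% ± 0.974, SO to 62.3% ± 6.25, SOA to 72.4% ± 3.5 and IV to 70.8% ± 3.58 (SD, n = 4, 5, 4 and 3). The second gave 22.7% ± 2.55 in IFC and 52.3% ± 4.02 in SO, and 69.9% ± 3.79 and 69.7% ± 2.96 in the SOA and IV groups. Single hypomethylated bins lay at 120, 250 and 840 kb. The blocks of bins named next were set after the values were seen. Between 600 and 860 kb the IFC mean was below the SO mean in 26 of 26 bins, whether or not the bin reached the limit. In contrast, the bins at 30, 50 and 60 kb held 93.8% to 95.8% in IFC and 91.7% to 94.9% in SO, while the bin between them at 40 kb, too thinly covered in SO to compare, stood at 61.9% in IFC. Among these 4 bins the lowest IV mean was 58.5%, and the lowest SOA mean, among those with a value, was 98.1%. The 3 bins from 870 kb held 90.4% and 88.1% at the median, and the last bin of the body, at 900 kb, was low in both (23.3% and 17.7%). From 430 to 600 kb, 17 bins were low in all groups, none above 29.8% in any group mean, with bin medians of 10.1% in IFC and 8.87% in SO, and 8.24% and 12.6% in the SOA and IV groups.

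The bin with the largest difference in Etl4, at 800 kb, gave 34.5%, 17.6%, 34.0% and 43.0% in IFC and 95%, 63.9%, 87.0%, 76.8% and 62.3% in SO. Its SOA libraries stood at 95.5%, 96.4%, 80% and 86.2% and its IV libraries at 93.6%, 88.4% and 89.1%, so that IFC was below every other library and 44.7 points below SO. The bin at 600 kb, which holds internal starts at 600.3 and 610.0 kb, followed with 21.4%, 38.1%, 13% and 35.7% in IFC against 59.3%, 79.3%, 67.7%, 56.8% and 61.5% in SO. Coding transcripts of Etl4 also start at 380, 430, 813 and 828 kb. The bin at 640 kb was 35.3 points lower, although IFC1 reached 68.9%, above the lowest SO library at 58.7%. The first hypomethylated bin, at 120 kb, was poorly covered, with as few as 4 positions in a library, and its IFC values ran from 0% to 45.6%. In the last, at 840 kb, IFC values were 14% to 25% and SO values 41.5% to 62.5%. The bin of the gene start itself was nearly unmethylated in all groups (10.4% in IFC and 7.81% in SO, and 3.89% and 6.39% in the SOA and IV groups).

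**Figure D3:**
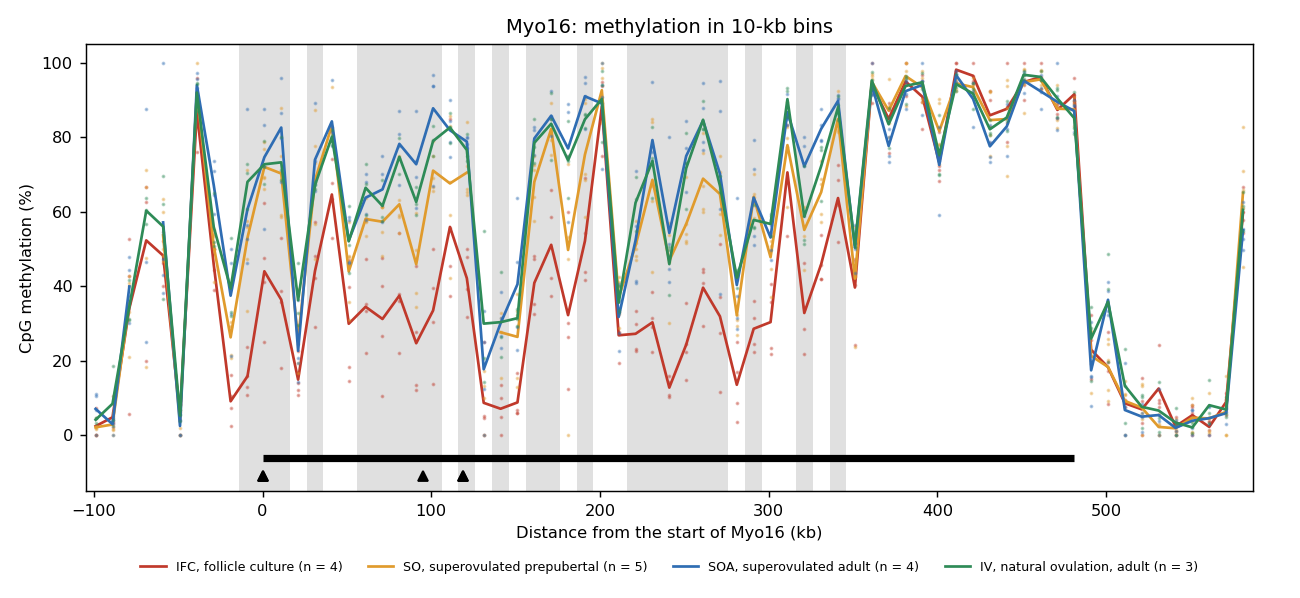
CpG methylation (%) in 10-kb bins along Myo16 and 100 kb of either flank, drawn as for Etl4. The IFC mean is below the SO mean in every comparable bin from -14 to 346 kb, and no bin from 356 kb to the end of the body is hypomethylated.

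In Myo16 the hypomethylated bins were spread over most of the body and began before it. The stretches, allowing 1 intervening bin, ran 50 kb from -14 kb with 4 of 5 bins, 140 kb from 56 kb with 10 of 14, 80 kb from 216 kb with 7 of 8, and 30 kb from 316 kb with 2 of 3. Methylation of the longest was 34.4% ± 8.25 in IFC and 56.9% ± 4.34 in SO, and 70.6% ± 6.15 and 66.7% ± 2.37 in the SOA and IV groups. The 80-kb stretch showed the largest difference, with 26.3% ± 6.03 in IFC and 57.1% ± 3.11 in SO. From -14 to 346 kb the IFC mean was below the SO mean in all 35 bins that could be compared. The bin at 346 kb held 39.7% in IFC and 42.0% in SO. The 13 bins after it, from 356 kb to the 3′ end, held bin medians of 91.5% in IFC and 93.4% in SO, and 90.3% and 91.7% in the SOA and IV groups, and IFC was below SO in 6 of them, with a lowest IFC minus SO difference of -8.43 points.

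The largest difference in Myo16 was at 226 kb, where IFC gave 31.5%, 38.5%, 22.2% and 29.0% and SO gave 84.1%, 43.8%, 84.9%, 67% and 63%. The bin at 96 kb spans no annotated start but begins just after the one at 95.4 kb. It gave 39.6%, 13.9%, 50.0% and 30.4% in IFC and 69.0%, 66.7%, 65.5%, 75.0% and 78.8% in SO. Upstream of the gene, the bin at -14 kb gave 12.9%, 15.8%, 10.9% and 23.8% in IFC and 33.3%, 55.9%, 71.2%, 57.4% and 47.2% in SO. IFC did not overlap with any other library in these 3 bins. The bin of the gene start gave 41.1%, 62.3%, 47.6% and 25% in IFC and 69.0%, 66.1%, 69.4%, 78.8% and 76.7% in SO, where IFC2 was above the lowest SOA library at 55.3%. The last hypomethylated bin, at 336 kb, was still largely methylated, at 63.7% in IFC against 84.9% in SO.

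**Figure D4:**
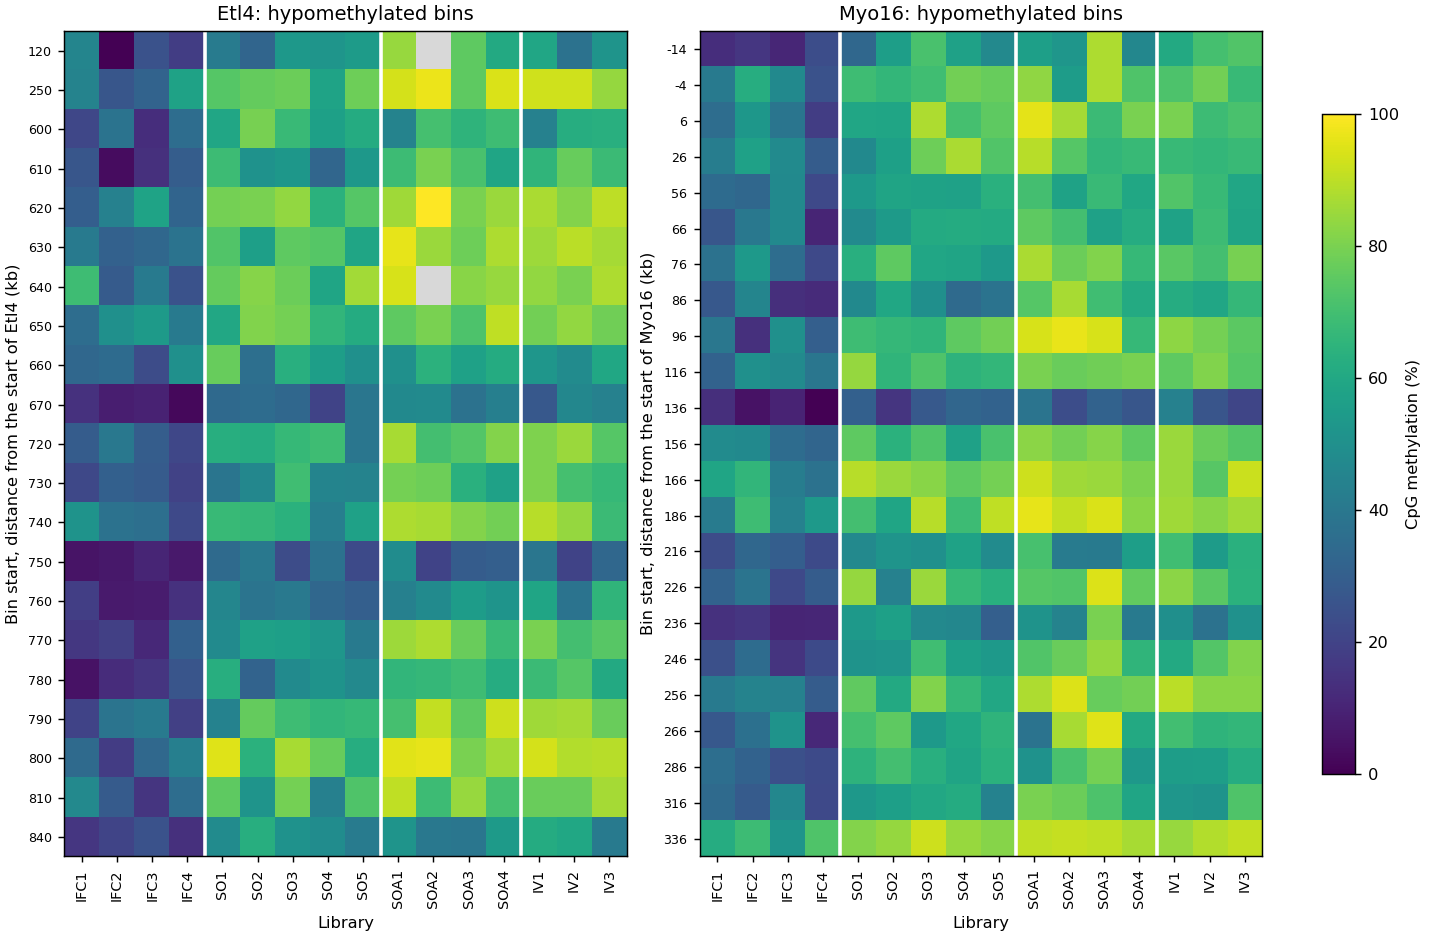
CpG methylation (%) of every hypomethylated bin (rows, by distance of the bin start from the gene start in kb) in each of the 16 libraries (columns) for Etl4 (left, 21 bins) and Myo16 (right, 23 bins). Grey cells had fewer than 5 covered positions, and white lines separate IFC, SO, SOA and IV. Every IFC library is below every other library in 15 of the Etl4 rows and 17 of the Myo16 rows, against 668 of all 2337 such bins of the genome. This count needs values in every library, which 19 of the Etl4 rows, all Myo16 rows and 2064 of the genome's bins had.

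In most of the hypomethylated bins SO lay between IFC and the adults. Its mean was below both adult means in 15 of the 19 Etl4 bins with values in every group and in 20 of 23 Myo16 bins, compared with 41.0% of all 2064 such bins of the genome. The median SO minus SOA difference was -14.1 points over these Etl4 bins and -8.30 over these Myo16 bins, against -0.407 over the bins of the genome, and SOA minus IV had medians of -0.516 and 3.27. SO values entered the choice of these bins, so these are descriptions.

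A likelihood-ratio test of a logistic model of the calls, adjusted over all informative bins and with a limit of 20 points, was then applied to the groups grown in vivo. Between SO and SOA, 5 of 94 Etl4 bins and 2 of 67 Myo16 bins were called lower in SO, against 0.853% of all bins, and none was called higher, against 1.09%. In Etl4 the largest difference was at 300 kb (42.5% in SO and 74.2% in SOA, adjusted p = 0.0305), where IFC stood at 42.0%, next to SO. Etl4 bins at 770 kb (50.9% and 79.4%, adjusted p = 1.81e-05) and 740 kb (59.6% and 83.6%, adjusted p = 6.34e-08) followed, both of them also hypomethylated in IFC, and bins at 700 and 710 kb made up the 5. In Myo16 the bins were at 176 kb (49.7% and 77.0%, adjusted p = 0.0106) and 86 kb (45.9% and 72.7%, adjusted p = 8.76e-05), the latter also hypomethylated in IFC. Between SO and IV, 7 of 103 Etl4 bins were called lower in SO, against 0.788% of all bins (higher, 1.03%), and 0 of 67 Myo16 bins by this test, with 0 also at an unadjusted p under 0.05 and the same limit of 20 points. With no limit on the difference, 13 of these 67 Myo16 bins passed the adjusted test, all of them lower in SO by differences of -3.56 to -17.5 points, as did 21 of the 103 Etl4 bins, against 5.89% of all bins lower and 3.84% higher. Between SOA and IV, 1 of 97 Etl4 bins, at 270 kb, was called lower in SOA and 0 of 68 Myo16 bins (0 also at an unadjusted p under 0.05 with the same limit), against 0.224% lower and 0.148% higher among all bins. This test treats calls as independent, and 0 of these bins were called in either gene by a quasi-binomial F test, which allows for spread between libraries, or by limma on the bins. Both tests called few bins anywhere: between SO and SOA the F test called 7 of 198981 bins lower and 15 higher and limma 145 and 256, between SO and IV the F test called 0 and 1 and limma 99 and 195, and between SOA and IV neither called any. The 0 calls here are near that rate and say little about these bins.

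**Figure D5:**
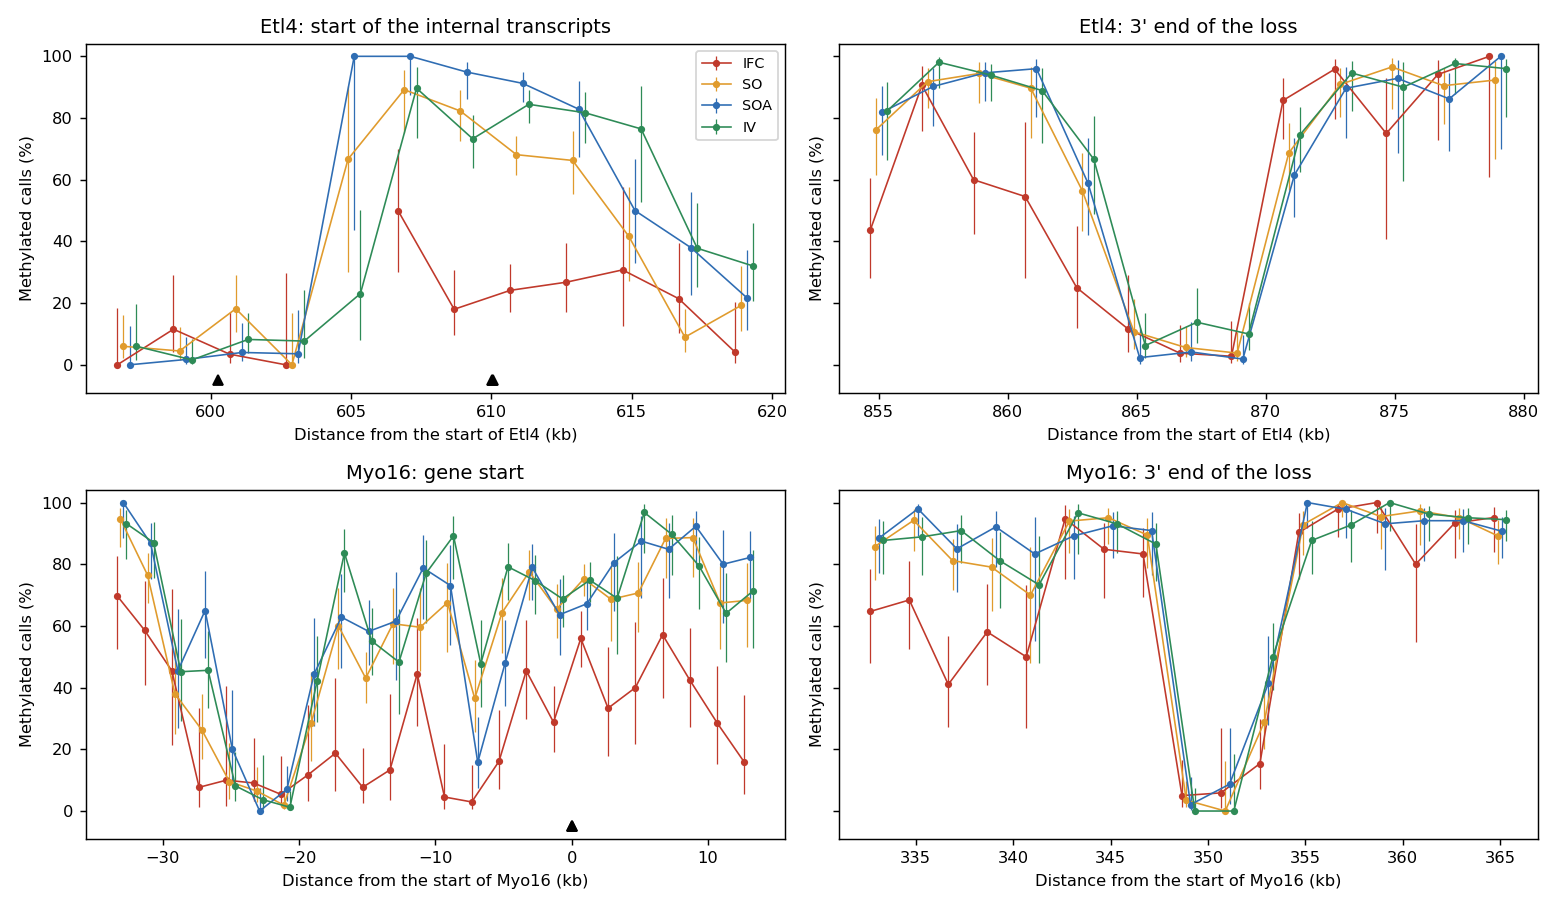
Methylated calls (%) of each group, pooled over its libraries, in 2-kb windows against the distance from the gene start (kb), with 95% Wilson intervals, at the internal starts of Etl4, the 3′ end of the Etl4 difference, the start of Myo16 and the 3′ end of the Myo16 difference. Triangles mark annotated transcript starts, and the intervals cover counting error only. All groups share the low levels from 596 to 604 kb of Etl4 and the dips at 864 to 870 kb of Etl4 and 348 to 352 kb of Myo16. IFC lies far below SO at 608 to 614 kb of Etl4 and from -18 to -12 kb and -10 to -2 kb of Myo16.

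Pooled calls in 2-kb windows showed where the profiles parted. Their intervals, here and around Myo16 below, cover counting error only and leave out the spread between libraries. Just past the internal Etl4 start at 600 kb all groups were still low (600 to 602 kb, 3.45% in IFC and 18.2% in SO, and 4.00% and 8.22% in the SOA and IV groups). From 608 to 610 kb IFC was methylated to 18.0% (interval 9.77% to 30.8%), SO to 82.3% (72.4% to 89.1%), SOA to 94.9% and IV to 73.3%. The next window, which contains the second pair of starts and 55 CpGs, gave 24.1% in IFC (17.3% to 32.7%), 68.1% in SO (61.5% to 74.1%), 91.2% in SOA (85.3% to 94.9%) and 84.4% in IV (78.4% to 89.0%). At the 3′ side the difference was not continuous, since from 856 to 858 kb IFC was at 90.6% (75.8% to 96.8%) and SO at 91.8% (83.2% to 96.2%). From 860 to 862 kb IFC stood at 54.5% in 11 calls (28.0% to 78.7%) and SO at 89.7% (73.6% to 96.4%). All groups dipped together to 1.85% to 13.8% from 864 to 870 kb, and at 870 to 872 kb IFC reached 85.7% (73.3% to 92.9%) against 68.7% in SO (56.8% to 78.5%).

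Around the start of Myo16, all groups shared a low window from -22 to -20 kb (5.41% in IFC and 1.92% in SO). Before it, from -34 to -32 kb, IFC was already lower, at 69.7% (52.7% to 82.6%) against 94.7% in SO (85.6% to 98.2%). From -30 to -28 kb it was not (45.5% against 38.1%). After the low window, from -16 to -14 kb, IFC stood at 7.69% (2.65% to 20.3%) and SO at 43.1% (35.1% to 51.4%). From -10 to -8 kb IFC was methylated to 4.55% (0.807% to 21.8%) and SO to 67.6% (51.5% to 80.4%). The 2 kb after the start, with 75 CpGs, differed less, at 56.0% in IFC (46.6% to 64.9%) and 75.3% in SO (69.8% to 80.1%). At the other border, IFC was at 41.0% and SO at 81.2% from 336 to 338 kb, but at 94.7% and 94.0% from 342 to 344 kb. All groups then dipped to between 0% and 8.70% from 348 to 352 kb. From 352 to 354 kb IFC was again the lowest, at 15.4% (7.25% to 29.7%), with SO at 28.8% (20.0% to 39.5%), SOA at 41.5% (27.8% to 56.6%) and IV at 50% (39.2% to 60.8%), and from 354 to 356 kb the groups stood at 87.7% to 100%.

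The composition of the hypomethylated bins is given beside that of the other body bins. In Etl4 the median bin held 81 reference CpGs and 42.7% GC when hypomethylated, and 63.5 CpGs and 41.2% GC when not. In Myo16 the medians were 86 CpGs and 43.55% GC against 98 CpGs and 44.2% GC. Exons lay in 11 of 21 hypomethylated body bins of Etl4 and 14 of 22 of Myo16, and in 15 of 58 and 11 of 26 of the others. In SO the hypomethylated bins had means of 31.6% to 77.0% in Etl4 and 27.6% to 84.9% in Myo16, where the definition itself keeps out any bin under 20% in SO. Of them, 0 of 21 in Etl4 and 2 of 22 in Myo16 stood at 80% or more in SO, beside 10 of 58 and 15 of 26 of the other bins.

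Within the hypomethylated bins the difference was present on both DNA strands. These bins were chosen for an IFC mean at least 20 points below SO, so the values below largely restate that choice. Over the hypomethylated body bins of Etl4, IFC was 30.3 points below SO on the forward strand and 30.2 below on the reverse strand. For Myo16 the differences were 29.1 and 26.8 points, and on either strand of both genes all IFC libraries were below all others. The other body bins fell short of the limit or could not be compared. There IFC minus SO was -2.19 (forward) and -1.12 (reverse) points in Etl4, and -4.37 and -6.22 in Myo16. To describe how calls were distributed at single CpGs, all possible draws of 4 calls were taken from each CpG with 4 or more pooled calls. In the hypomethylated Etl4 bins 39.7% of draws from 155 IFC CpGs held no methylated call and 3.84% held only methylated calls, compared with 12.6% and 20.3% over 638 SO CpGs. Fully methylated draws made up 40.3% in SOA and 44.6% in IV. In Myo16, 26.1% of the IFC draws were without methylation and 5.82% fully methylated, against 6.88% and 27.2% in SO. Draws that mixed both kinds of call were frequent in all groups, with 56.5% in IFC and 67% in SO for Etl4 and 68.1% and 65.9% for Myo16. In the other body bins, draws with no methylated call made up 47.1% in IFC and 45.7% in SO for Etl4. For Myo16 they made up 18.2% and 12.2%.

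Over the 16 libraries the Pearson r between the 2 genes was 0.920, a value that the choice of both for low levels in IFC enters, as do differences between groups. The same choice enters the likeness of other genes to either, where Myo16 ranked 14 for Etl4 and Etl4 ranked 16 for Myo16. The genes whose body methylation followed Etl4 most closely among 2594 genes with at least 200 covered positions in every library were Cacng3 (r = 0.982), Astn1 (r = 0.973), Rims1 (r = 0.961), Ptprk (r = 0.951) and Angpt1 (r = 0.949). For Myo16 they were Nlgn1 (r = 0.953), Adam23 (r = 0.947), Col24a1 (r = 0.943), Lmx1a (r = 0.937) and again Ptprk (r = 0.937). Cacng3, an auxiliary subunit of glutamate receptors, was methylated to 29.5% in IFC and 49.4% in SO, and 58.6% and 58.6% in the SOA and IV groups. Adam23, a membrane protein of the disintegrin family, gave 40.1%, 62.4%, 66.7% and 64.6%.

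Relatives and partners were taken from fixed lists. All 23 unconventional myosins were measured, and limma called 0 of them between IFC and SO (0 at an unadjusted p under 0.05), where 0.216% of gene bodies were called lower in IFC and 0.216% higher. Their median IFC minus SO difference was 0.582 points, near the 0.627 of all genes, with Myo19, a mitochondrial myosin, at 5.34 and Myo7a, a myosin of sensory hair cells, at -3.30. Myo1e, a membrane-binding myosin, was the single member called, 9.61 points higher in IFC than in SOA (34.1% ± 2.87 against 24.5% ± 3.07, limma adjusted p = 0.0170) and 10.8 higher than in IV (adjusted p = 0.0168). Among all gene bodies, 2.13% and 1.73% were called higher in IFC in these contrasts, and 1.57% and 1.09% lower. It was also 8.10 points higher in SO than in SOA (adjusted p = 0.0596).

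Of 12 genes for proteins that work with Myo16, 10 were measured and 0 were called between IFC and SO (2 at an unadjusted p under 0.05). Nyap2, a neuronal phosphoprotein that binds Myo16, gave 49.5%, 49.2%, 49.5% and 45.1% in IFC, 52.6% to 60.0% in SO, 56.1% to 65.1% in SOA and 57.6% to 61.9% in IV, so that IFC lay below all other libraries. Its IFC minus SO difference was -7.40 points (limma adjusted p = 0.22). It was called lower in IFC against both adult groups, with IFC minus SOA at -13.1 points (adjusted p = 0.00340) and IFC minus IV at -11 points (adjusted p = 0.0229). In those contrasts with the adults 1.57% and 1.09% of gene bodies were called lower in IFC, and 2.13% and 1.73% higher. Cyfip1, a subunit of the WAVE complex that directs actin branching, had an IFC minus SO difference of 5.70 points (adjusted p = 0.482). Srcin1, the relative of Etl4, was almost unmethylated in all groups (3.55% to 4.70%). Arhgap21, the only protein-coding gene that reaches into the flanks, gave 82.4% in IFC and 79.2% in SO, and 77.8% and 77.3% in the SOA and IV groups, and limma did not call the IFC minus SO difference of 3.22 points (adjusted p = 0.90).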

How the data were processed

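Bisulphite reads of 16 oocyte pools were trimmed, aligned to GRCm38 and turned into CpG calls by the authors with Trim Galore 0.4.4, cutadapt 1.9.1 and Bismark 0.19.0, as the submitters' processing notes give them. The deposited files list, per cytosine position, the percent methylation beside counts of calls that were methylated or not. The percent column equalled the share given by the counts to within 0.01 in every file. Here, a library's value for a bin, segment, flank or body was the mean percent over its covered positions, with at least 5 positions per bin in every library compared and 20 per gene body. Bins were tested with a logistic likelihood-ratio test on the calls, gene bodies with limma 3.58.1 over all 16 libraries (R 4.3.3), both Benjamini-Hochberg adjusted at 0.05 over all bins or genes, and single units with exact permutation tests. On simulated calls, 83.5% to 87% of bins changed by 30 points were recovered by the likelihood-ratio test. Only bins of middle methylation were changed, and the calls had no spread between libraries. The rate therefore does not hold for the real libraries, which have such spread. The members, lists and alternatives were chosen with earlier results of these data known. Genes were named by membership, by overlap with the flanks, by the 5 highest correlations with a member, or as the extreme and called members of the lists. Replicate numbers did not pair the SO, SOA and IV libraries (IFC was not checked), whose deviations correlated between -0.0499 and 0.0851 at equal number. Libraries are separate pools, but some may share females, and p-values measure the spread between pools.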

Additional observations from a re-analysis of the deposited data

Results flagged for a closer look

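In 2 of 48 groups of libraries over bodies, segments and flanks, 1 library stood far from the rest by Dixon's test, and chance gives about 1 in 20. SOA3 was at 16.8% in the upstream flank of Etl4, where the other SOA libraries were at 19.3% to 19.4%. The same library was at 40.7% in segment 4 of Etl4, where the others were at 45.8% to 46.7%.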

How the results depend on the processing

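Of 288 alternative values for 20 results, 242 were counted as unchanged, by a rule that differed between kinds of result. Tested body contrasts had to keep their direction and their side of the threshold. IFC body differences had to keep their sign and move by less than the pooled SD. Bin counts had to stay near the main count without having to equal it. Where a value changed, the cause was not tested unless the construction shows it. All IFC differences of both bodies kept their sign, also with libraries thinned to the same total of 5187928 calls. SO minus SOA and SO minus IV in the bodies (-5.80 and -6.39 in Etl4, -6.10 and -4.95 in Myo16) missed the threshold in limma and passed it only in exact tests, which are not adjusted over genes. SOA minus IV turned to 1.07 without SOA3 and 0.571 without IV1 in Etl4 (range -1.67 to 1.07) and to -0.0270 without SOA1 in Myo16 (range -0.0270 to 2.71). Hypomethylated bins numbered 6 and 9 with at least 20 positions a bin, where fewer bins were tested, and 12 and 9 at a limit of 30 points. Leaving out 1 library gave 20 to 25 and 18 to 26. For Etl4, the 5 bins called between SO and SOA became 3 in tiles of 100 CpGs, 0 with 20 positions, 1 at 30 points, and 0 with the quasi-binomial and limma tests, which in this contrast called only 7 lower and 15 higher, and 145 lower and 256 higher, of 198981 bins. They ranged from 4 to 10 with 1 library left out (10 without SO1, 8 without SOA3). The 2 of Myo16 became 1 with 20 positions, 0 at 30 points, 0 with both other tests, and 1 to 4 with 1 library left out (4 without SOA4, 1 without SO2, SO4 or SO5). The 1 Etl4 bin called between SOA and IV became 0 with a grid shifted by 5 kb, 20 positions, 30 points, either other test, or without SOA1, SOA3 or IV1 (range 0 to 1). For Myo16 it was 0 to 1, 1 without IV3. The 7 Etl4 bins called between SO and IV became 0 with 20 positions, at 30 points and with both other tests, and ranged from 5 to 13 (11 without SO1, 13 without IV3). For Myo16 the range was 0 to 1, with 1 without SO2, SO3, IV1 or IV2. With the replicate number as a block, SO minus SOA was -5.56 in Etl4 and -5.75 in Myo16, Myo16 SO minus IV was -3.26 (from -4.95) and SOA minus IV 2.49 (from 1.15), and 3 Etl4 bins were called between SO and IV. No other call changed with the block. Restricting to positions with at least 3 calls gave no value, since some library then had under 20 such positions. With 65.5% to 91.5% of positions read once, single CpGs were not compared.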
